A study of Homo sapiens with 2 samples.

Results

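Many human genes have a second gene on the opposite DNA strand, named after them with the ending -AS and a number. The 83 antisense RNAs described here are the rows whose name has that ending with 1 digit and whose FPKM (fragments per kilobase of gene, scaled to the total count of a library) was at least 1 in either library. They come from 1165 rows with such a name among 50867 gene rows. Of the other named rows, 618 had no count in either library and 464 were counted but stayed below 1 FPKM. Each member was set beside the row of the gene named before -AS, its partner, which was found for 80 of the 83. HOXC-AS1, HOXD-AS2 and RPARP-AS1 had no row of the partner name in the table used here.

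The cells were HCT116, an established human colorectal carcinoma line, transfected with either a control siRNA or an siRNA against PHF5A, and total RNA was made into stranded libraries. Each group had 1 library, so differences have no replicate check and are given without a test. Effects of the siRNA on other transcripts and effects of lower PHF5A cannot be told apart in this design. The 83 members were chosen by their own FPKM in these libraries, so their levels and ratios are a description. The comparison asked how RNA levels differed once PHF5A was lowered.

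PHF5A belongs to SF3b, the splicing complex that recognises the branch point of introns. An antisense RNA is read from the strand opposite to its partner. Some start beside the partner's own start and run away from it, so that a single stretch of promoter can serve both genes. Others start within the partner's body or beyond its end and can share exon sequence with it, and several are known to act in the cytoplasm or on chromatin without regard to the partner.

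Total counts were 26552789 in the control library and 25897412 in the PHF5A siRNA (knockdown) library, so 1 count on a gene of 1 kilobase was worth 0.0377 and 0.0386 FPKM. Below, values come in the order control, then knockdown. PHF5A had 367 and 91 counts (9.07 and 2.31 FPKM), in the direction of its label. Of 10 colon epithelial and HCT116 markers, 8 reached 1 FPKM, while CDH17 had no count in either library and VIL1 had 0 and 1. The control library also held RNA of 20 heart muscle markers, with a summed 328 FPKM against 5.46 in the knockdown library and 10 of them at 0 in the knockdown library, MYH7, NPPA and PLN included. Of 8 fibroblast markers 3 reached 1 FPKM (summed 12.6 and 2.6 FPKM), and none of 6 blood markers did. A lower value in the knockdown library therefore runs in the direction of the heart muscle markers, and their part in the results for antisense RNAs was not tested. The median log2 ratio (knockdown over control, with 1 added to each FPKM) was -0.15 over the 8957 genes that reached 1 FPKM in either library, and 38% of them lay above 0.

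The antisense RNAs were low in abundance. Together they took 22096 control counts (0.0832% of the library) and 19262 knockdown counts (0.0744%). Their median levels were 1.43 and 1.86 FPKM, and their partners' medians were 1.53 and 1.39 FPKM. In both libraries 52 members reached 1 FPKM, in the control library alone 11 did, and in the knockdown library alone 20 did. The threshold lay among values that hardly differed. TCEB3-AS1, PRKG1-AS1 and CECR5-AS1 were just inside it at 1.02, 1.02 and 1.03 FPKM, and WWTR1-AS1, SLC25A25-AS1 and ST3GAL4-AS1 just outside at 0.983, 0.925 and 0.917 FPKM. GENCODE release 29 lists 55 of the members as antisense, 14 as lincRNA, 9 as processed transcripts and 1, ABHD11-AS1, as a transcribed unitary pseudogene. It lists FAM83H-AS1, MMP24-AS1 and NCBP2-AS2 as protein-coding, and RALY-AS1 had no entry. Counts were small for many members, since 28 of the 83 had fewer than 100 over both libraries together.

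On the scale with 1 added to each FPKM, which understates the change of low genes, 5 antisense RNAs passed 2-fold. Their log2 ratios had a median of 0.16, an SD over genes of 0.53 and a range from -1.05 to 1.69. UNC5B-AS1, PRRT3-AS1, ATP2A1-AS1 and DOCK9-AS2 were higher by 2-fold or more with the PHF5A siRNA (4.82% of members, where 2.53% of all genes were), and SSTR5-AS1 was lower by at least as much (1.2%, where 6.2% of all genes were). These are calls by size alone. By CPM (counts scaled to the library total, with a prior of 0.5), 15 members were called higher and 5 lower, where 5.64% and 13.8% of all genes were. On the FPKM + 1 scale the calls were 5 higher and 0 lower after centring, where 345 and 358 of all 8957 genes were. After rescaling each library to an equal sum over genes (TPM) they were 3 higher and 4 lower, where 107 and 1361 of all 8957 genes were. Values above 0 were seen for 49 members and below 0 for 34, but TPM rescaling left 38 above 0 and moved the median to -0.10. That rescaling moved the median of all genes by -0.33, centring on the median by 0.15 and upper-quartile scaling by 0.21. Against the median of all genes, 59 of 83 lay above it as deposited and 57 to 63 under each of 5 other scalings. Centring leaves this count at 59 by construction. Scaling a whole library moves the members and that median together, so the narrow range is no separate check. The rule that chose the members read the same values, so nothing follows from these counts for antisense RNAs in general. Among the 52 members of at least 1 FPKM in both libraries, 29 lay above 0 and the median was 0.05. By CPM, the exact 95% interval for counting error excluded a ratio of 1 for 33 higher members (28.4% of all genes) and 14 lower ones (50.7% of all genes).

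**Figure D1:**
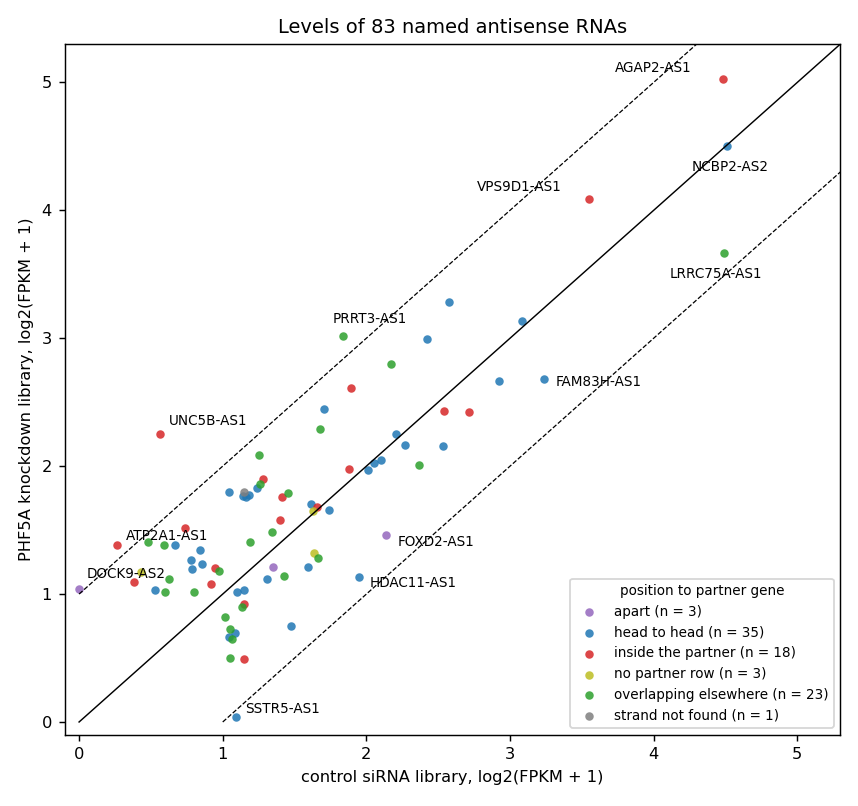
Level of each of the 83 antisense RNAs in the control library (x axis) and the knockdown library (y axis), as log2(FPKM + 1), coloured by position relative to the partner gene. The solid line marks equal levels and the dashed lines 2-fold differences of FPKM + 1: 4 RNAs lie above the upper dashed line and SSTR5-AS1 below the lower one.

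UNC5B-AS1 had the highest ratio of the members on the FPKM + 1 scale, while DOCK9-AS2 was above it by CPM and with a pseudocount of 0.1. CPM ratios given for single genes carry no prior, and by these ATP2A1-AS1 (8) was also above UNC5B-AS1 (7.86). UNC5B-AS1 lies in the first intron of UNC5B, a receptor for the guidance cue netrin, at chromosome 10, 71217224 to 71218228 on the minus strand (GRCh38). None of its exon bases fall in UNC5B exons. It had 9 and 69 counts, or 0.48 and 3.77 FPKM. Scaled to the library totals it was 7.86-fold higher (interval 3.91 to 17.9). UNC5B itself had 4119 and 1514 counts, or 22.2 and 8.38 FPKM, a log2 ratio of -1.31. It was the only pair in which both genes passed 2-fold of FPKM + 1 in opposite directions. No pair had both past it in the same direction, though by CPM OIP5-AS1 and OIP5 were both past 2-fold lower. UNC5B remained the more abundant gene per length in both libraries.

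The ratio of antisense to partner counts, compared between the libraries, does not depend on how a library is scaled. For UNC5B-AS1 it was 20.9-fold higher with the PHF5A siRNA (exact interval 10.3 to 47.6, counting error only). This quantity, called the pair ratio below, is above 1 where the antisense RNA gained on its partner. The RefSeq start window of UNC5B-AS1 (chr10:71218179-71218478, minus strand, GRCh38.p14) is shown because of its GC content of 51.3% and 2 CpG sites, where the members' medians were 68.5% and 28. It holds the letters TATAAA on the opposite strand, beginning 110 bases before the start. Capitals mark the 50 bases after the start.
UNC5B-AS1: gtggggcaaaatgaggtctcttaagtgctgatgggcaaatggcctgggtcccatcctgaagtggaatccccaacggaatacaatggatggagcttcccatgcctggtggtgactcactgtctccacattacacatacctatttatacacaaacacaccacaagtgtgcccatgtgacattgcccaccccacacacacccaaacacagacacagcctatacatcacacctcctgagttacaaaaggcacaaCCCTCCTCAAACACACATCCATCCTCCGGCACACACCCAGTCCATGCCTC

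ATP2A1-AS1, also inside its partner but with 42.2% of its exon bases in ATP2A1 exons, had 5 and 39 counts (0.201 and 1.61 FPKM). Its CPM ratio was 8 (interval 3.15 to 26). ATP2A1, the calcium pump of fast skeletal muscle, had 166 and 85 counts (1.05 and 0.551 FPKM). The pair ratio was 15.2 (5.66 to 50.9), and the antisense RNA passed from below to above its partner. Its window (chr16:28879872-28880171, minus strand) is GC-rich at 75%, with 34 CpG sites and a GC box (GGGCGG), and is shown as the contrast to UNC5B-AS1, with the same use of capitals.
ATP2A1-AS1: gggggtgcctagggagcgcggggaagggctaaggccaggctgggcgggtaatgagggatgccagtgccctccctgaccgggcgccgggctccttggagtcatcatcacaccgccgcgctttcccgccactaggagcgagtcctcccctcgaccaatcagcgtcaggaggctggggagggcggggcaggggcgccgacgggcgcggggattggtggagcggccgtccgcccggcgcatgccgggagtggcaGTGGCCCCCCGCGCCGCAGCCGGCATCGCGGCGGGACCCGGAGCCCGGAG

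PRRT3-AS1 overlaps PRRT3, a proline-rich transmembrane protein gene, and was at 2.58 and 7.11 FPKM (42 and 113 counts, 2.76-fold by CPM, interval 1.92 to 4.03). PRRT3 was at 1.16 and 0.998 FPKM, close to equal. DOCK9-AS2, now named DOCK9-DT, had 0 and 22 counts, at least 7.52-fold higher against a floor of 3 control counts. DOCK9, which activates the small GTPase CDC42, was at 0.678 and 0.624 FPKM. Of these 4 RNAs, PRRT3-AS1 alone had more than 100 counts over both libraries, so the other calls rest on few reads.

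SSTR5-AS1 had the lowest ratio of the members. It starts beside SSTR5, a somatostatin receptor gene, and runs away from it over chromosome 16, 1064093 to 1078731, on the minus strand. It had 156 and 4 counts (1.13 and 0.03 FPKM), 38-fold lower by CPM (interval 14.6 to 141). Its log2 ratio of -1.05 was no longer past 2-fold after centring on the median of all genes. SSTR5 had 200 and 210 counts (5.53 and 5.95 FPKM), so the neighbours parted, with a pair ratio of 0.0244 (0.00648 to 0.0659). The heart muscle markers were lower in the same library (summed 328 and 5.46 FPKM), and their part in this value was not tested. HDAC11-AS1 showed a smaller difference in the same direction, at 2.85 and 1.2 FPKM (39 and 16 counts). HDAC11, a histone deacetylase gene, was at 1.04 and 1.24 FPKM (pair ratio 0.355, 0.182 to 0.662). Unlike SSTR5-AS1, HDAC11-AS1 overlaps its partner, with 64.1% of its exon bases in HDAC11 exons.

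**Figure D2:**
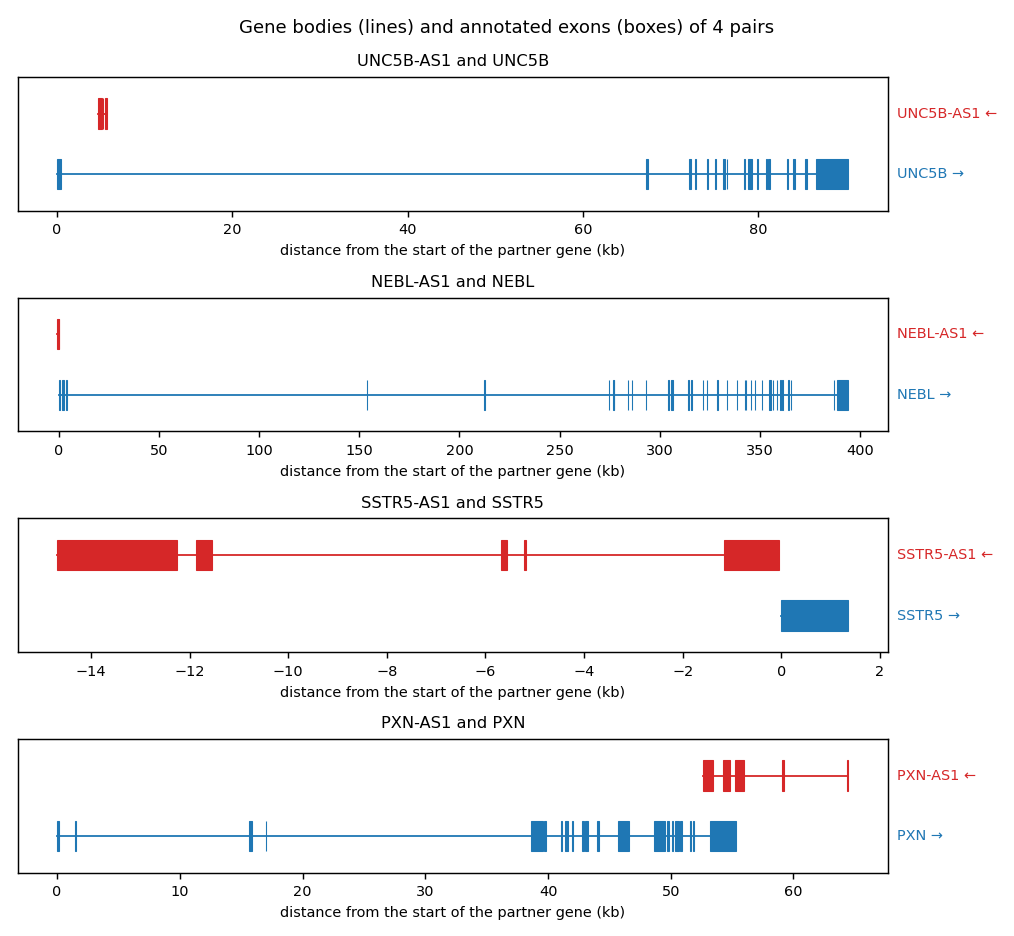
Gene bodies (lines) and annotated exons (boxes) of 4 pairs, drawn to scale within each panel as distance in kilobases from the start of the partner gene, with the antisense RNA in red and the partner in blue. UNC5B-AS1 lies inside its partner, NEBL-AS1 and SSTR5-AS1 start beside theirs, and PXN-AS1 overlaps the far end of PXN.

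Partners as a group were somewhat lower in the knockdown library. Their median log2 ratio was -0.12 (80 genes, 29 above 0, 50 below and PYCARD at 0 in both libraries), near the -0.15 of all genes and no longer negative after centring (0.02). Partners past 2-fold of FPKM + 1 were UNC5B, NEBL, PXN and EML2 on the lower side (5% of partners, beside 6.2% of all genes) and MMP24 on the higher (1.25%, beside 2.53%). Partners were not chosen by level, and 51 of the 80 reached 1 FPKM (median -0.16).

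NEBL had the lowest ratio of the partners on the FPKM + 1 scale. It encodes nebulette, an actin-binding protein of the heart muscle Z-disc, and had 1976 and 29 counts (4.36 and 0.0655 FPKM). NEBL-AS1, which starts 173 bases from it, had 36 and 70 counts (1.21 and 2.41 FPKM). The pair ratio was 132 (74.3 to 237), and NEBL-AS1 was the lower of the pair in control cells and the higher with the PHF5A siRNA. The heart muscle markers moved with NEBL (19 of 20 reached 1 FPKM in the higher library, summed 328 and 5.46), and their part in this value was not tested. TTN-AS1, which shares 55.1% of its exon bases with exons of the heart muscle gene TTN but lies below the threshold of 1 FPKM, gave a like contrast. TTN had 65612 and 37 counts, and TTN-AS1 had 94 and 85.

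PXN, which encodes the focal adhesion protein paxillin, was at 51.9 and 18.2 FPKM (23976 and 8215 counts), a log2 ratio of -1.46. PXN-AS1, reading across the far end of PXN with 38.6% of its exon bases in PXN exons, was at 1.54 and 1.8 FPKM (160 and 183 counts). Its own CPM ratio of 1.17 had an interval that included 1 (0.943 to 1.46), and its log2 ratio lay below 0 under TPM rescaling. The pair ratio was 3.34 (2.68 to 4.16). EML2, a microtubule-binding protein gene, was at 7.1 and 2.73 FPKM. EML2-AS1, with 95% of its exon bases in EML2 exons, was at 1.22 and 0.898 FPKM (75 and 54 counts, pair ratio 1.92, 1.32 to 2.78). PITPNA, a phosphatidylinositol transfer protein gene, was at 3.13 and 1.45 FPKM, and PITPNA-AS1 at 1.39 and 2.64 FPKM on 20 and 37 counts (pair ratio 4.1, 2.28 to 7.57).

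Some partners were higher while the antisense RNA was lower or less raised. MMP24, a membrane-type matrix metalloproteinase gene, had 43 and 375 counts (0.367 and 3.28 FPKM), and MMP24-AS1 507 and 878 counts (2.2 and 3.9 FPKM). Both were higher in the knockdown library, MMP24 far more so, with a pair ratio of 0.199 (0.139 to 0.279). MMP24-AS1 shares exon bases on its own strand with another expressed gene, RP4-614O4.11, so its reads may be split. ADIRF, the adipogenesis regulatory factor gene, had the highest level of any partner, at 71 and 140 FPKM. ADIRF-AS1 was at 1.69 and 1.21 FPKM (411 and 287 counts, pair ratio 0.363, 0.309 to 0.426), with exon bases shared on its strand with MMRN2. FAM222A was at 2.7 and 4.53 FPKM and FAM222A-AS1 at 2.17 and 1.43 FPKM (pair ratio 0.392, 0.281 to 0.545). MAFG, a small Maf transcription factor gene, was at 2.24 and 3.88 FPKM, while MAFG-AS1 was at 4.79 and 3.46 FPKM, so the order of the pair turned over (pair ratio 0.418, 0.341 to 0.513).

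Across the 80 pairs the antisense RNA and its partner showed no common direction. Pearson's r of their log2 ratios was -0.10 and Spearman's rho -0.01 (n = 80 pairs from the same 2 libraries, given as a description). The antisense minus partner log2 ratio had a median of 0.33, with its lowest value of -1.25 for ADIRF-AS1 and its highest for UNC5B-AS1. It was above 0 in 59 pairs and below in 21, at least 1 in 13 and at most -1 in 3. The antisense RNA was higher and the partner lower in 31 pairs (38.8%), the reverse held in 14, both were higher in 15 and both lower in 19, with PYCARD left out at 0. The same combination of a higher antisense RNA and a lower partner was seen in 30.2% of 182 other antisense genes, those with a clone name and an overlapping protein-coding partner, chosen at the same FPKM threshold.

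The pair ratio was defined for 79 pairs and had a median of 1.62. Its counting interval lay above 1 in 42 pairs (53.2%) and below 1 in 16 (20.3%), and included 1 in 21. For the clone-named genes, each set beside the protein-coding gene it overlaps most, the shares were 36.6% and 18.6%. The named pairs go by name and include 24 without body overlap, so the 2 sets differ in kind. The pair ratio was at least 2 in 33 pairs and at most 0.5 in 12. Because members entered through the higher of their own values, these shares are not independent of the rule, and the difference from the clone-named genes was not tested. Among pairs whose antisense RNA reached 1 FPKM in both libraries, the interval lay above 1 in 26 and below 1 in 12 of 50.

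**Figure D3:**
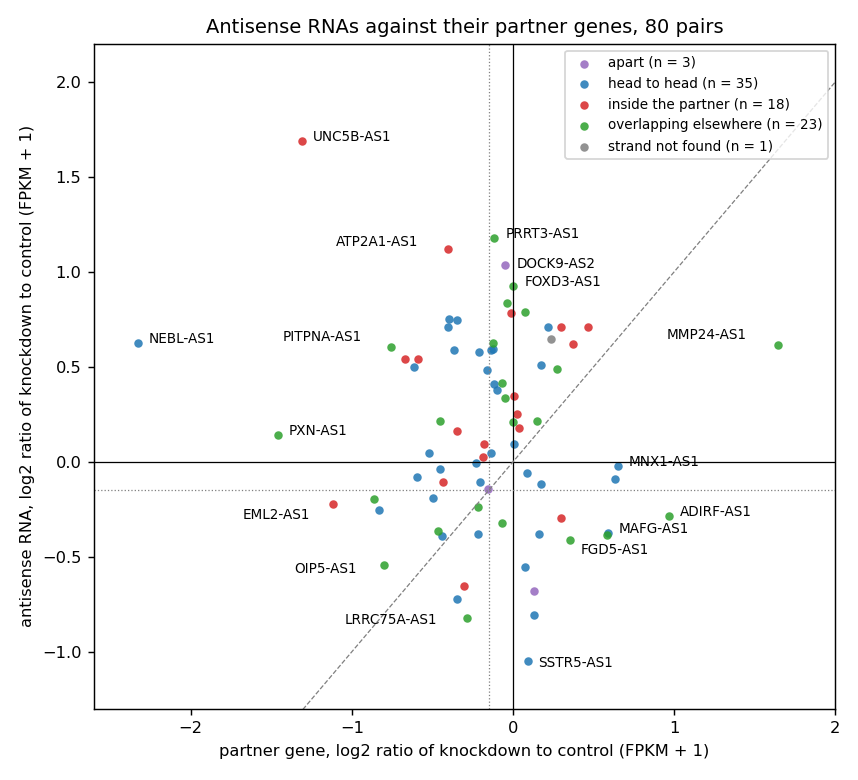
Log2 ratio (knockdown over control) for each antisense RNA (y axis) against that of its partner gene (x axis), for 80 pairs coloured by position, with dotted lines at the median of all genes (-0.15) and a dashed line of equal ratios. The points show no common slope (Pearson's r -0.10), 59 lie above the dashed line, and UNC5B-AS1 and NEBL-AS1 lie farthest above it.

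Levels within a pair were compared per length. The FPKM of the antisense RNA exceeded that of the partner in 42 of 80 pairs in control cells and 46 (57.5%) with the PHF5A siRNA, and in 40 in both. Antisense RNAs entered by their own FPKM and partners did not, which favours this order. Without the threshold it was 136 of 1144 named pairs (11.9%), many of them without a count. The order changed in favour of the antisense RNA in 6 pairs, those of URB1, PITPNA, NEBL, GATA2, DOCK9 and ATP2A1. It changed in favour of the partner for HDAC11 and MAFG. URB1, a ribosome biogenesis gene, was at 7.4 and 3.72 FPKM and URB1-AS1 at 6.57 and 5.34 FPKM (pair ratio 1.62, 1.24 to 2.1).

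**Figure D4:**
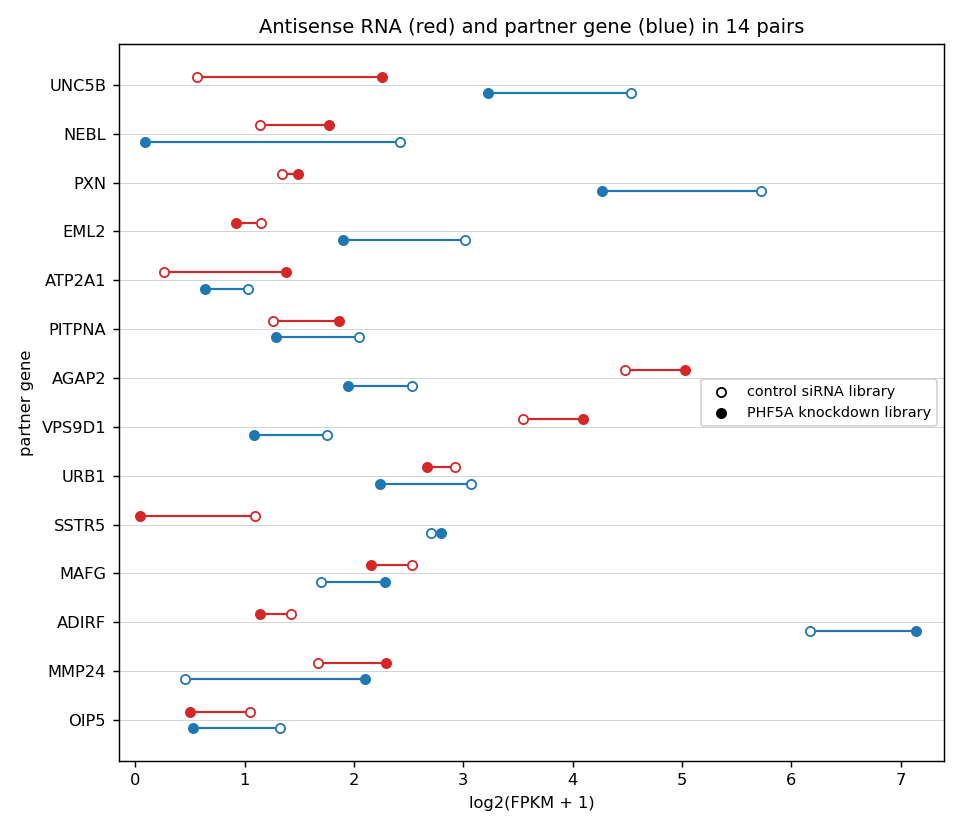
Levels of the antisense RNA (red) and the partner gene (blue) in 14 pairs as log2(FPKM + 1), with open circles for the control library and filled circles for the knockdown library. UNC5B, NEBL, PXN and EML2 lie to the left of their control level in the knockdown library, and MMP24 to the right.

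The most abundant members differed in direction. AGAP2-AS1, inside AGAP2, a gene for a GTPase-activating protein, was at 21.4 and 31.6 FPKM (851 and 1228 counts), and AGAP2 at 4.78 and 2.84 FPKM (pair ratio 2.49, 2.19 to 2.84). LRRC75A-AS1, now named SNHG29 and a host of small nucleolar RNAs, was at 21.5 and 11.7 FPKM (9495 and 5049 counts, 1.83-fold lower by CPM, interval 1.77 to 1.9). Its partner LRRC75A was at 0.49 and 0.224 FPKM, so both were lower (pair ratio 1.19, 0.816 to 1.77). NCBP2-AS2, a short coding gene that starts 26 bases from the cap-binding gene NCBP2, was level at 21.8 and 21.7 FPKM, with the sign of its log2 ratio of -0.01 turning positive under 3 scalings. VPS9D1-AS1 was at 10.7 and 16.1 FPKM and VPS9D1, a gene with a VPS9 domain, at 2.38 and 1.12 FPKM (pair ratio 3.18, 2.57 to 3.94).

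Other members among the 10 most abundant included MAN1B1-AS1, FAM83H-AS1, KMT2E-AS1, URB1-AS1 and PRRT3-AS1. MAN1B1-AS1 was at 4.95 and 8.75 FPKM, beside MAN1B1, a mannosidase gene of glycoprotein quality control, at 7.97 and 9.42 FPKM. FAM83H-AS1 was at 8.44 and 5.43 FPKM, beside FAM83H, a keratin-organising gene, at 46.1 and 48.6 FPKM (pair ratio 0.609, 0.539 to 0.688). KMT2E-AS1 was at 4.35 and 6.98 FPKM and KMT2E, a chromatin regulator gene, at 0.518 and 0.311 FPKM. In the MAN1B1 and KMT2E pairs the antisense RNA gained on its partner, and in the FAM83H pair it lost.

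Of 43 antisense RNAs on a list of well-studied ones, 11 were members, and they split into 5 higher and 6 lower, with none called on the FPKM + 1 scale and a median log2 ratio of -0.37, below the 0.16 of all members. The lower ones were LRRC75A-AS1, FOXD2-AS1, FAM83H-AS1, OIP5-AS1, FGD5-AS1 and MAFG-AS1. FOXD2-AS1, transcribed away from the forkhead gene FOXD2, was at 3.41 and 1.75 FPKM, and FOXD2 at 1.14 and 1.35 FPKM. OIP5-AS1, also called cyrano, was at 1.07 and 0.418 FPKM (430 and 164 counts, 2.56-fold lower by CPM, interval 2.13 to 3.08), and OIP5, a gene needed for centromere assembly, at 1.51 and 0.442 FPKM (63 and 18 counts). Both were lower, with a pair ratio of 1.33 (0.753 to 2.47). FGD5-AS1 was at 1.09 and 0.571 FPKM, and FGD5, a gene known from endothelium, had 9 and 85 counts (0.0331 and 0.32 FPKM).

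The higher ones were EPB41L4A-AS1, PXN-AS1, VPS9D1-AS1, AGAP2-AS1 and ELFN1-AS1, though EPB41L4A-AS1 and PXN-AS1 lay below 0 under TPM rescaling. EPB41L4A-AS1, a host of a small nucleolar RNA, was at 2.69 and 2.93 FPKM, with an interval of its CPM ratio that included 1 (0.945 to 1.26). EPB41L4A, a membrane-cytoskeleton gene, had 49 and 5 counts, which gave a pair ratio of 10.4 (4.11 to 33.9) at a partner level of 0.151 and 0.0158 FPKM. ELFN1-AS1 was at 2.72 and 5.1 FPKM, and ELFN1, a synaptic adhesion protein gene, at 1.96 and 3.09 FPKM, so both were higher (pair ratio 1.19, 0.863 to 1.64).

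Position set the pairs into classes. Starts on opposite strands within 1000 bases of each other (head to head) were found in 35 pairs, an antisense RNA inside its partner's body in 18, overlap elsewhere in 23 and bodies apart in 3, while RALY-AS1 had no strand in the annotation. RALY-AS1 was at 1.22 and 2.47 FPKM and RALY, an RNA-binding protein gene, at 10.7 and 12.8 FPKM. The RNAs inside their partner had a median log2 ratio of 0.30 (14 above 0, 4 below), those overlapping elsewhere 0.22 (14 and 9) and the head-to-head ones -0.01 (17 and 18). Partner medians were -0.18, -0.07 and -0.16. The pair ratio's interval lay above 1 in 9 of 18 pairs with the antisense RNA inside, 11 of 22 overlapping elsewhere and 20 of 35 head to head, and below 1 in 2, 4 and 9. The classes overlapped widely and their differences were not tested. They rest on the deposited gene positions, and RefSeq starts differ for some pairs. CHKB-AS1, RASSF1-AS1, FOXD3-AS1 and DOCK9-AS2, classed elsewhere, start 177, 61, 109 and 29 bases from their partner in RefSeq. Their log2 ratios were 0.62, 0.02, 0.93 and 1.04. RALY-AS1, ZBTB11-AS1 and PYCARD-AS1, also not classed head to head, start 456, 702 and 875 bases away in RefSeq. Their log2 ratios were 0.65, 0.22 and 0.21. MAFG-AS1 and PDCD4-AS1, classed head to head (-0.37 and 0.41), start 4836 and 1024 bases away in RefSeq.

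**Figure D5:**
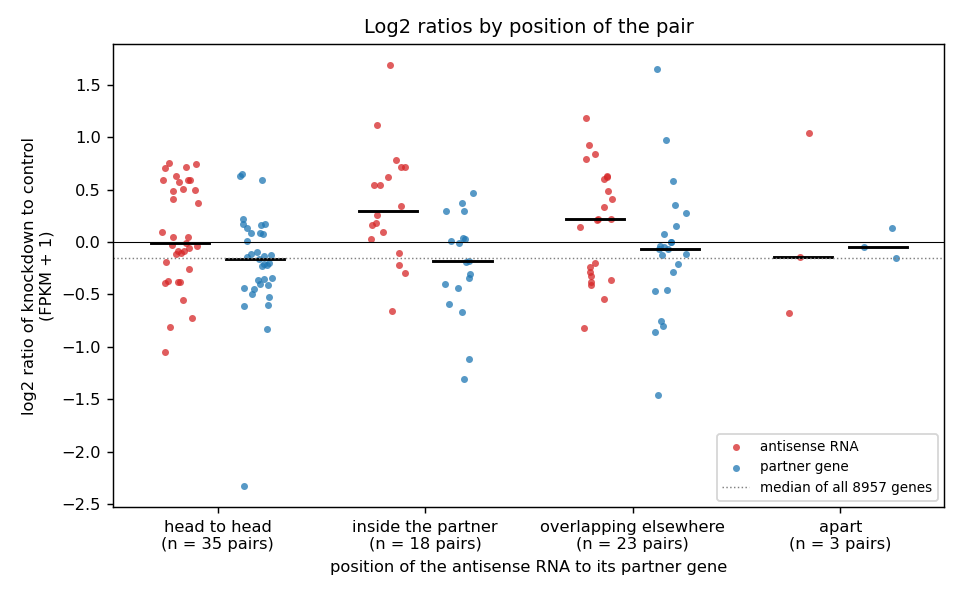
Log2 ratio (knockdown over control) for each antisense RNA (red) and partner gene (blue), by position of the pair, with the class median as a bar and the median of all 8957 genes as a dotted line. The classes overlap, and the medians of the antisense RNAs (0.30 inside, 0.22 overlapping elsewhere, -0.01 head to head) lie above those of their partners, while the 3 pairs apart do not.

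Head-to-head genes can share the very bases of their promoters. RefSeq start windows (250 bases before to 50 after the start, GRCh38.p14) were at hand for 70 members and 71 partners, with both for 64 pairs. Of 29 head-to-head pairs with both windows, 18 shared bases, and of 35 other pairs 4 did. In the current gene names, 11 members are called divergent transcripts (-DT). The GC box GGGCGG, searched on both strands, was in 64.3% of member windows, 80.3% of partner windows and 45% of all 35116 windows. TATAAA was in 7.14%, 9.86% and 11.5%, and the ETS-type site CCGGAAGT in 2.86%, 5.63% and 4.14%. Such a match is a description of the letters and not of a factor.

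The genes at 4 of these shared windows serve as examples. The 4 were picked after their values were seen and are printed to show how much sequence a pair can share, with capitals for bases that also lie in the partner's window. For SSTR5-AS1 (chr16:1078682-1078981, minus strand, 194 shared bases) the antisense RNA was lower and SSTR5 was level, as given above. For MNX1-AS1 (chr7:157010607-157010906, plus strand, 293 shared bases) the antisense RNA was level at 3.15 and 3.08 FPKM, and MNX1, a homeobox gene of motor neurons and pancreas, had 30 and 132 counts (0.193 and 0.872 FPKM). For SCAMP1-AS1 (chr5:78360492-78360791, minus strand, 175 shared bases) the levels were 1.36 and 2.55 FPKM, and SCAMP1, a secretory carrier membrane protein gene, was at 0.656 and 0.286 FPKM. For UBAC2-AS1 (chr13:99200706-99201005, minus strand, 198 shared bases) they were 1.06 and 2.47 FPKM, and UBAC2, a gene of endoplasmic reticulum protein degradation, was at 5.56 and 3.97 FPKM.
SSTR5-AS1: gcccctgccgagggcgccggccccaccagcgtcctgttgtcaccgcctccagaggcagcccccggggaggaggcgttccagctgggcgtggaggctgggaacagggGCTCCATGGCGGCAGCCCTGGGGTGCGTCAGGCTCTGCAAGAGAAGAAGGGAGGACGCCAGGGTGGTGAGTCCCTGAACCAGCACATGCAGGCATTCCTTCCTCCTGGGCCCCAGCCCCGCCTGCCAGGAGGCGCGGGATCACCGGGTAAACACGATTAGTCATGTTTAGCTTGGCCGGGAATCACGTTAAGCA
MNX1-AS1: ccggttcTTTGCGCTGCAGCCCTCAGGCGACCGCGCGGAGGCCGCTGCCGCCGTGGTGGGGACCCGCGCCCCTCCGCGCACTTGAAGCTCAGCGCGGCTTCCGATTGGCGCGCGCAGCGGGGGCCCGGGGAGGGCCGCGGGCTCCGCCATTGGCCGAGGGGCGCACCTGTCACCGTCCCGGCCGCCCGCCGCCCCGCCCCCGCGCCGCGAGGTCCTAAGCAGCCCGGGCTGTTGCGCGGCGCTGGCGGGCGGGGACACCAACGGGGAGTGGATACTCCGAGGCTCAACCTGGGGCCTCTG
SCAMP1-AS1: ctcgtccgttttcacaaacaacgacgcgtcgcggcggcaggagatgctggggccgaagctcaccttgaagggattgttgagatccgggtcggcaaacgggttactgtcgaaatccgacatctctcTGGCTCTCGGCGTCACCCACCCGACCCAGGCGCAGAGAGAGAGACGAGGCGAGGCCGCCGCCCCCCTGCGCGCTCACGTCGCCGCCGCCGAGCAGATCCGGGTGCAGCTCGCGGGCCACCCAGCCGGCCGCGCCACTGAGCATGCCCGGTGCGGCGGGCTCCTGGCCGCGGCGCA
UBAC2-AS1: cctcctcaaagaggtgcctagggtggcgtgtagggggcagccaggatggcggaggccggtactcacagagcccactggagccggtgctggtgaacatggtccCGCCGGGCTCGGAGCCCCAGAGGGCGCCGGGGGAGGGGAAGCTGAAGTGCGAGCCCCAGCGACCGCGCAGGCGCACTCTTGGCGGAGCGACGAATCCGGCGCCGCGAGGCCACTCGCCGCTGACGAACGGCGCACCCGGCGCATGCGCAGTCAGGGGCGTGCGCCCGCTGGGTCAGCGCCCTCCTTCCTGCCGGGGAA

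The pair ratios of these 4 were 0.0244 for SSTR5, 0.217 (0.127 to 0.366) for MNX1, 4.31 (2.86 to 6.5) for SCAMP1 and 3.26 (2.3 to 4.66) for UBAC2. Since these 4 were picked by their values, the tally over all 18 head-to-head pairs with shared bases is the fuller account. The interval lay above 1 in 11, below 1 in 5 and included 1 in 2, with a median pair ratio of 1.53. The sign of the log2 ratio of MNX1-AS1 (-0.02) turned positive under 3 scalings.

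The partners' known roles gave another way to order the members. Partners in transcription and chromatin had 12 antisense RNAs, 8 of them higher and 4 lower (median 0.24), none called on the FPKM + 1 scale. By CPM, GATA2-AS1 (2.36-fold, interval 1.91 to 2.93) and FOXN3-AS1 (2.81-fold, 1.63 to 5.03) were past 2-fold higher. GATA2-AS1 was at 1.38 and 3.26 FPKM while GATA2, a blood and endothelial transcription factor gene, was level at 2.42 and 2.33 FPKM (pair ratio 2.44, 1.89 to 3.16). FOXN3-AS1 was at 0.664 and 1.86 FPKM, and the forkhead gene FOXN3 at 0.208 and 0.199 FPKM. FOXD2-AS1, described above, was the lowest of the 12.

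Partners in signalling, adhesion and membrane traffic had 14, of which 10 were higher and 4 lower (median 0.29, none past 2-fold on either scale). MMP24-AS1, PITPNA-AS1 and WWC2-AS2 had the highest ratios on the FPKM + 1 scale. WWC2-AS2 was at 1.24 and 2.39 FPKM, beside WWC2, a gene of the Hippo pathway, at 0.366 and 0.253 FPKM (pair ratio 2.78, 1.92 to 4.03). Partners in RNA processing and translation had 4, split 2 and 2. NOP14-AS1 was at 0.508 and 1.61 FPKM (160 and 494 counts, 3.17-fold by CPM, interval 2.64 to 3.81), and NOP14, a gene of small ribosomal subunit assembly, was level at 3.93 and 4.2 FPKM. YTHDF3-AS1 was at 2.26 and 4.46 FPKM, and YTHDF3, a reader of methylated adenosine in RNA, at 1.07 and 0.625 FPKM (pair ratio 3.38, 2.24 to 5.15).

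Partners in cell cycle, DNA repair and ubiquitin had 4 antisense RNAs, 3 higher and OIP5-AS1 lower. FBXL19-AS1 was at 0.591 and 1.6 FPKM, and FBXL19, an F-box protein gene, at 6.63 and 4.76 FPKM (pair ratio 3.78, 2.77 to 5.2). ARRDC1-AS1 was at 1.74 and 2.46 FPKM, and ARRDC1, an arrestin-domain adaptor of ubiquitin ligases, at 6.91 and 6.66 FPKM. The list of mitochondria and metabolism held ATP2A1-AS1 alone. The other 48 members had partners on none of these lists, or no partner row, and split into 25 higher and 23 lower with a median of 0.02.

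Among the remaining members with the largest ratios on the FPKM + 1 scale, FOXD3-AS1 had 15 and 61 counts (0.396 and 1.65 FPKM) beside FOXD3, a neural crest transcription factor gene with 5 counts in each library. At the other end, SEMA3B-AS1 was at 1.78 and 0.685 FPKM on 16 and 6 counts, with a CPM interval that reached 1, and SEMA3B, a secreted semaphorin gene, at 0.99 and 0.561 FPKM. RARA-AS1 was at 1.22 and 0.41 FPKM (58 and 19 counts), and RARA, a retinoic acid receptor gene, at 8.84 and 6.98 FPKM (pair ratio 0.426, 0.238 to 0.729). STARD7-AS1 was at 1.12 and 0.616 FPKM and STARD7, a lipid transfer protein gene, at 9.04 and 6.39 FPKM, with a pair ratio whose interval included 1 (0.554 to 1.08). ABHD11-AS1 lies apart from its partner in the deposited positions, though 9.82% of its GENCODE exon bases lie in ABHD11 exons. It was at 1.55 and 1.31 FPKM, and its log2 ratio of -0.14 turned positive after centring and upper-quartile scaling. ABHD11, a mitochondrial hydrolase gene, was at 12.3 and 11 FPKM.

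The antisense values carry a limit of strand. The kit keeps strand, but whether the counting used it was not given in the sources used here, so reads of an antisense RNA and an overlapping partner may not have been told apart. In 48 pairs some exon bases of the antisense RNA lay in partner exons, and in 31 none did. Among pairs described above, the share was 69.9% for PITPNA-AS1, 57.7% for AGAP2-AS1 and 49.6% for EPB41L4A-AS1. It was 32.7% for PRRT3-AS1, 29.5% for VPS9D1-AS1 and 13.8% for NEBL-AS1. The median antisense and partner log2 ratios were 0.19 and -0.15 with overlap and 0.05 and -0.12 without it, and Pearson's r was -0.02 and -0.27. The pair ratio's interval lay above 1 in 24 of 47 pairs with overlap and in 17 of 31 without. Pairs without shared exon bases can still overlap in their gene bodies, as UNC5B-AS1 does. Body overlap with a partner row, in the deposited positions, was absent for 27 members. They include 3 without a partner row, of which HOXC-AS1 and RPARP-AS1 overlapped another expressed gene on the opposite strand. ABHD11-AS1 is also among them, though 9.82% of its exon bases lie in ABHD11 exons. The median log2 ratio of the 27 was -0.02 with 12 above 0, beside 0.16 and 49 of 83 for all members. The antisense minus partner median of their 24 pairs was 0.27, above 0 in 15, beside 0.33 and 59 of 80. The part of partner intron reads was not tested. Members with 1 exon had a median of 0.19 (20 RNAs) and those with more exons 0.12 (62 RNAs).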

How the data were processed

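Libraries were made from Trizol-extracted RNA of HCT116 cells with TruSeq Stranded Total RNA reagents, per the labels' protocols. HISAT2 2.0.4, Cuffdiff and the hg38 (GRCh38) genome are named in the submitters' processing notes. Annotation release and strand setting were not given in the sources used here. Per the file headers, the authors deposited counts (whole numbers) and FPKM for every gene in each library. FPKM equals the count over 1 length per gene and the library total, since the implied lengths differed by at most 0.0241% over 18898 genes. Of 50869 lines, 2 from 1 broken entry were left out.

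The log2 ratio used FPKM + 1, and a call was a 2-fold difference by size alone. CPM ratios carry exact conditional binomial (Clopper-Pearson) 95% intervals. Pair ratios are odds ratios of the counts and carry exact conditional 95% intervals of the odds ratio. Both kinds cover counting error only, since reads are not independent molecules. Against 0 counts a floor of 3 was used. Strand, type and exons came from GENCODE release 29 by identifier, which matched 82 of 83 members, with positions equal in 78, and 80 partners. Promoter windows came from RefSeq (GRCh38.p14), matched by symbol. Members, gene lists, marker lists and the yardstick of clone-named antisense genes were chosen with earlier results of these data known. Genes named are the 10 highest, 10 lowest and 10 most abundant members, members on the well-studied list, pairs with both genes called, the 5 largest and 5 smallest pair differences, the 3 members on each side of the threshold, and up to 3 pairs per list and position class. The values of 1 gene so named, and of its partner, are not reported here. MNX1, SCAMP1, TTN-AS1 and the classes by exon overlap were added after their values were seen. Alternatives were other pseudocounts, level filters, scalings and thresholds, CPM with a prior of 0.5, and pairs that do not overlap. The procedure was tested on simulated data. Computation used matplotlib 3.10.9, scipy 1.17.1, pandas 2.3.3 and numpy 2.4.6 under Python 3.11.15.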

Additional observations from a re-analysis of the deposited data

How the results depend on the processing

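Shifts of the medians were set against the typical reach, to 1 side, of the counting interval of a single gene or pair. On the log2 scale this margin was 0.45 for antisense RNAs, 0.22 for partners and 0.55 for the pair difference. Every alternative run stayed within it. A median over many genes has a smaller counting error than a single gene, so this does not show that the medians were stable. The antisense median ranged from -0.10 with TPM rescaling to 0.54 at a minimum of 5 FPKM, so its sign depends on the scaling. The partner median ranged from -0.33 with TPM rescaling to 0.02 with centring, and the pair difference from 0.05 without a filter to 0.68 with CPM. Counts past a threshold moved more. The share over all genes was not computed for the other pseudocounts, the level filters and the 1.5-fold threshold. Their counts of calls describe the setting only. Antisense RNAs at least 2-fold higher (4 as reported) were 13 with a pseudocount of 0.1, 9 with 0.5, 1 at a minimum of 5 FPKM, 2 with a mean of at least 1 FPKM, 15 with CPM and a prior of 0.5, and 24 at 1.5-fold. Antisense RNAs at least 2-fold lower (1 as reported) were 5 with a pseudocount of 0.1, 0 at a minimum of 5 FPKM, 0 with a mean of at least 1 FPKM, 0 after centring, 4 with TPM rescaling, 5 with CPM and 6 at 1.5-fold. Pairs with both genes called in the same direction (0 as reported) were 1 with a pseudocount of 0.1 and 1 with CPM, both times OIP5-AS1, and 1 at 1.5-fold, MMP24-AS1. Pairs called in opposite directions (1 as reported) were 0 at a minimum of 5 FPKM, 3 at 1.5-fold (UNC5B-AS1, NEBL-AS1 and PITPNA-AS1) and 0 among pairs that do not overlap. Antisense RNAs above their partner in the knockdown library (46 as reported) were 136 of 1144 pairs without a filter (11.9%) and 9 of 13 at a minimum of 5 FPKM (69.2%), beside 57.5% of the 80 pairs reported. A minimum of 100 counts over both libraries, an alternative added after the values were seen, left 1 RNA called higher, 0 pairs called in opposite directions and 29 antisense RNAs above their partner. With TPM rescaling the calls were 3 higher and 4 lower, while those of all 8957 genes were 107 and 1361. No paired analysis was possible because each group had 1 library, and no library could be left out for the same reason.

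Depth limits the rarest members, since 28 of 83 had fewer than 100 counts over both libraries and the lowest had 14.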
